A study of Mus musculus with 6 samples.

Results

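The 2 strands of miR-122, the microRNA (miRNA) that dominates hepatocytes, were followed through 6 small RNA libraries made from mouse liver cells. They were chosen by name, as the entries miR-122-5p and miR-122-3p among the 1960 mature miRNAs of the deposited count table, and both passed the filter on low counts, as did 297 miRNAs in all. The cells were labelled liver immune cells. The mice were C57BL/6J females with a wildtype genotype, 10 weeks old in every group, and each group is represented by 2 libraries called biological replicates.

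The Vehicle group, without disease, was given only the carrier, DMSO in corn oil. In the ConA+Vehicle group, hepatitis was induced through the retro-orbital sinus with 12.5 mg/kg of concanavalin A (ConA), a T cell mitogen from jack bean that injures the liver, and the carrier was given too. The ConA+D8THC group had that same ConA dose together with the cannabinoid delta-8-tetrahydrocannabinol (D8THC), injected intraperitoneally in a volume of 100 µL at 20 mg/kg. The first D8THC dose came 15 to 18 h before ConA and the second 30 min after it. No group with D8THC alone was analysed here, and the number of mice behind a library is not given in the sources used here, so the p-values measure the spread between these libraries. The design puts 2 questions to miR-122: how its level differs after ConA, and how it differs between ConA with and without D8THC.

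A miRNA hairpin is cut into a short duplex of a 5p and a 3p strand, and usually one of the strands is kept in the Argonaute protein while the other is degraded. For miR-122 the kept strand is miR-122-5p, which represses target mRNAs in hepatocytes and is known for its effects on cholesterol and lipid metabolism and as a host factor of hepatitis C virus. It is scarce in other cell types, and injured hepatocytes release it into blood.

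4 other miRNAs that are abundant in hepatocytes, miR-192-5p, miR-194-5p, miR-148a-3p and miR-802-5p, served as the comparison set. Which cells of these bulk samples carried them was not tested, so a change in the set need not be one of hepatocytes. The mature sequences of the set are shown so that their seeds can be compared. They are from RefSeq (GRCm38.p6), and the capitals mark the seed, bases 2 to 8, which pairs with target mRNAs. The opposite strands of miR-192 and miR-802 are included since both strands of these hairpins passed the filter.
miR-192-5p: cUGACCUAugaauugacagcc
miR-192-3p: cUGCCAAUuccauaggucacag
miR-194-5p: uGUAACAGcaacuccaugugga
miR-148a-3p: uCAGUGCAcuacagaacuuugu
miR-802-5p: uCAGUAACaaagauucauccuu
miR-802-3p: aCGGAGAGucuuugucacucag
No seed is shared among these 6 strands. In GENCODE M21 (genome build mm10), miR-194-5p is encoded at chr1:185313319-185313385 (Mir194-1, opposite in strand to Iars2 and within its intron) and at chr19:6264643-6264728 (Mir194-2), and the mature strand printed is identical for both. Mir192 lies beside Mir194-2 on the same strand at chr19:6264844-6264932, so miR-192-5p and miR-194-5p may not be independent in counts over the comparison set. Mir148a spans chr6:51269812-51269910 on the minus strand, and Mir802 chr16:93369720-93369816 on the plus strand.

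The Mir122 hairpin itself spans chr18:65248861-65248926 on the plus strand, inside exon 2 of the long non-coding RNA gene AC157910.3 (chr18:65244287-65252621, plus strand). RefSeq places a second gene, Mir122b, at chr18:65248863-65248921, within the same stretch. The table lists miR-122b-5p separately, with 6 and 5 counts in Vehicle, 5 and 3 in ConA+Vehicle and 0 and 1 in ConA+D8THC, too few to test. miR-122b-3p had no count in any library. The strand of Mir122b was not examined, so whether any read could match both hairpins is not known. How reads from this stretch were assigned is not given in the sources used here.

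Library totals ran from 322764 counts in a ConA+Vehicle library to 1172389 in a Vehicle library, and the ConA+Vehicle libraries were the smallest. All 6 libraries held every defining marker of blood cells, endothelium, hepatocytes, stellate cells, bile duct and the erythroid line. The pan-haematopoietic miR-142a strands made up 2.53% to 7.31% of counts in Vehicle, 9.03% to 10.3% in ConA+Vehicle and 7.72% to 11.2% in ConA+D8THC. Endothelial miR-126a strands took 32.7% to 34.2%, 12.8% to 13.2% and 20.7% to 26.7%, so the cells labelled immune also carried endothelial and hepatocyte miRNAs. In such bulk samples fewer cells of a type and less RNA per cell cannot be told apart.

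miR-122-5p was the most abundant miRNA of both ConA+Vehicle libraries. It ranked 3 and 2 in Vehicle and 7 and 6 in ConA+D8THC, and endothelial miR-126a-3p led every library of those groups. Its share of all counts was 7.39% and 12.5% in the Vehicle libraries, 14.5% and 16.7% in ConA+Vehicle, and 4.35% and 5.81% in ConA+D8THC. The order of the groups was thus ConA+Vehicle, Vehicle, ConA+D8THC, with no overlap between any pair, though such separation was common. Over all 297 miRNAs, libraries did not overlap for 67.3% between ConA+Vehicle and Vehicle, 46.8% between the ConA groups and 74.7% between ConA+D8THC and Vehicle. Exact 95% binomial intervals on the shares of miR-122-5p were narrow, for example 7.33% to 7.45% in Vehicle replicate 1 and 12.4% to 12.5% in Vehicle replicate 2. The 1.69-fold gap between these replicates is thus far outside counting error. Such intervals cover counting error only.

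Scaled to library size, as CPM (counts relative to a library size set by trimmed-mean scaling), miR-122-5p stood at 76919 and 128134 in Vehicle, 137664 and 177908 in ConA+Vehicle, and 41044 and 57101 in ConA+D8THC. The group means were 102526 ± 36215, 157786 ± 28457 and 49072 ± 11355 CPM (SD, n = 2 each). The highest Vehicle library came close to the lowest ConA+Vehicle library, while both ConA+D8THC libraries were below every other.

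miR-122-3p was present at a small fraction of this level, with 114 and 216 counts in Vehicle, 34 and 20 in ConA+Vehicle, and 27 and 20 in ConA+D8THC. In CPM it stood at 157 and 189, 84.8 and 66.2, and 27.9 and 28.5, with means of 173 ± 22.6, 75.5 ± 13.1 and 28.2 ± 0.418 (SD, n = 2 each). It was highest in Vehicle, intermediate in ConA+Vehicle and lowest in ConA+D8THC, again without overlap, as for many miRNAs, and so in another order than miR-122-5p. Its rank among all miRNAs moved from 121 and 112 in Vehicle to 157 and 166 in ConA+Vehicle and to 210 and 219 in ConA+D8THC.

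**Figure D1:**
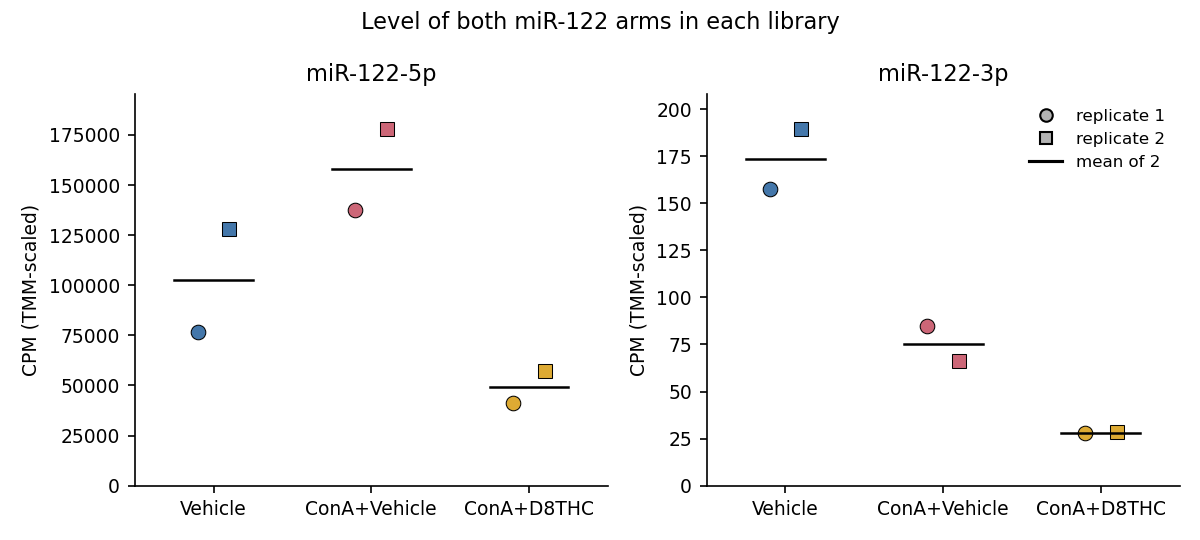
CPM (trimmed-mean scaled, y axes from 0) of miR-122-5p on the left and miR-122-3p on the right in each of the 6 libraries, with replicate 1 as a circle, replicate 2 as a square and the mean of 2 as a line. miR-122-5p is highest in ConA+Vehicle (137664 and 177908 CPM), whereas miR-122-3p is highest in Vehicle (157 and 189 CPM), and both are lowest in ConA+D8THC.

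After ConA alone, the strands parted. miR-122-3p fell 2.28-fold against Vehicle (log2 fold change -1.19 ± 0.33 SE, adjusted p = 0.0167, edgeR quasi-likelihood test with Benjamini-Hochberg adjustment over 297 miRNAs). The log2 difference of miR-122-5p was 0.62 ± 0.29 with adjusted p = 0.124, which did not pass the threshold of 0.05. In this comparison 109 of 297 miRNAs were called, 36.7%, and the groups' libraries did not overlap for 67.3%, so calls and groups without overlap were common. The call of miR-122-3p was lost without ConA+Vehicle replicate 1 (adjusted p = 0.0596) or replicate 2 (adjusted p = 0.143), and the difference of miR-122-5p was called without Vehicle replicate 2 (log2 1.05, adjusted p = 0.00618). With ConA+Vehicle replicate 1 left out, 67 miRNAs were called in place of 109.

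Between the ConA groups, miR-122-5p fell 3.22-fold with D8THC (log2 -1.68 ± 0.30, adjusted p = 0.00999 by edgeR). This was 1 of only 11 miRNAs called, 3.7% of the 297, and all 11 were lower with D8THC. That one-sided direction did not hold in all alternatives, with 5 higher and 12 lower by DESeq2, 12 and 32 with the replicate block, and 4 and 14 with the 4 libraries alone. The groups' libraries did not overlap for 46.8% of miRNAs. The difference of miR-122-3p was of like size but not called, at log2 -1.43 ± 0.36 with adjusted p = 0.0533 by edgeR. Without Vehicle replicate 1, which enters through the shared estimate of the spread, its adjusted p was 0.0121, and without Vehicle replicate 2 it was 0.00643; it was called in 6 of 16 alternatives. miR-122-5p was called in all 16 alternatives run, from log2 -1.92 to -1.43, with adjusted p from 3.25e-09 to 0.0182. The count of 11 grew to 34 (8 higher) or 40 (10 higher) when replicate 1 or 2 of Vehicle was left out, to 24 without ConA+D8THC replicate 2, and to 17 without ConA+D8THC replicate 1 or ConA+Vehicle replicate 2.

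Against Vehicle, both strands were lower in the ConA+D8THC libraries. miR-122-3p fell 6.14-fold (log2 -2.62 ± 0.34, adjusted p = 0.000439 by edgeR), the third largest decrease among the 297 miRNAs, and miR-122-5p fell 2.09-fold (log2 -1.06 ± 0.30, adjusted p = 0.0207). In this comparison 97 miRNAs were called, 32.7%, of which 42 were lower, and libraries did not overlap for 74.7%. The call of miR-122-3p was made in all 16 alternatives run (log2 -2.75 to -2.44). That of miR-122-5p was lost without Vehicle replicate 2 (log2 -0.61, adjusted p = 0.132) or ConA+D8THC replicate 1 (log2 -0.83, adjusted p = 0.129), and the count of 97 dropped to 63 without the latter library. This comparison shares the Vehicle libraries with the first and the ConA+D8THC libraries with the second.

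**Figure D2:**
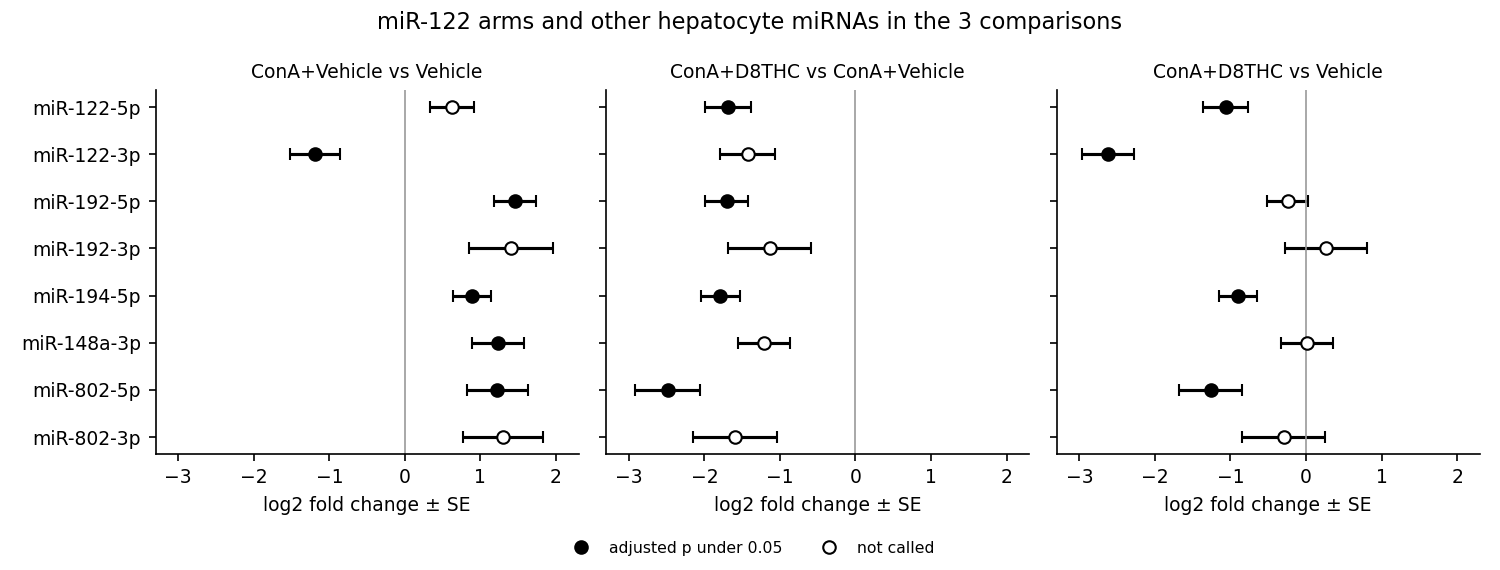
Log2 fold change with its standard error (x axis) of the miR-122 strands and 6 strands of other hepatocyte miRNAs in the 3 comparisons, where filled points have an adjusted p under 0.05 in edgeR. After ConA alone miR-122-3p lies at -1.19, left of 0, while the other 7 strands lie to the right, with miR-122-5p at 0.62.

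The ratio of the strands within a library does not depend on how libraries are scaled. miR-122-5p outnumbered miR-122-3p 489 and 677 times in Vehicle, 1624 and 2688 times in ConA+Vehicle, and 1473 and 2007 times in ConA+D8THC. Both ConA groups thus lay above both Vehicle libraries and overlapped each other. Ratios of the libraries compared did not overlap for 69.7% of 66 hairpins between ConA+Vehicle and Vehicle, 71.2% between ConA+D8THC and Vehicle, and 50% between the ConA groups. Put as a share, the 3p strand was 0.204% (exact 95% interval 0.168% to 0.245%) and 0.148% (0.129% to 0.169%) of the hairpin's counts in Vehicle. It was 0.0615% (0.0426% to 0.0860%) and 0.0372% (0.0227% to 0.0574%) in ConA+Vehicle. In ConA+D8THC it was 0.0678% (0.0447% to 0.0987%) and 0.0498% (0.0304% to 0.0769%), and no interval of either ConA group reached those of Vehicle.

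**Figure D3:**
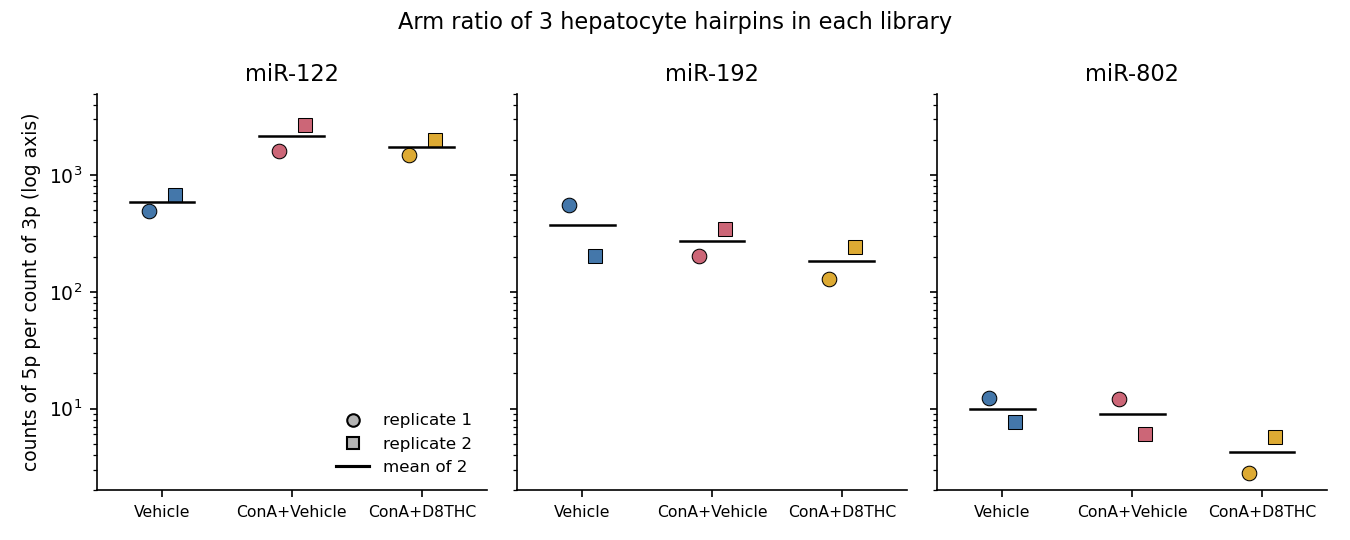
Counts of the 5p strand per count of the 3p strand (log axis) for miR-122, miR-192 and miR-802 in each library, with replicate 1 as a circle, replicate 2 as a square and the mean of 2 as a line. For miR-122 the Vehicle libraries (489 and 677) lie below all 4 libraries of mice given ConA (1473 to 2688), while the Vehicle and ConA+Vehicle libraries of miR-192 and miR-802 overlap.

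Both strands were modelled together for the 66 hairpins whose strands share a name and each passed the filter, with each library as its own baseline (edgeR quasi-likelihood test). The 5p to 3p ratio of miR-122 rose 3.49-fold from Vehicle to ConA+Vehicle (log2 1.80 ± 0.36, adjusted p = 0.00533), the second lowest p and the fourth largest change among the hairpins. It rose 2.92-fold from Vehicle to ConA+D8THC (log2 1.54 ± 0.37, adjusted p = 0.00776). Between the ConA groups the difference was -0.26 ± 0.44 on the log2 scale (adjusted p = 0.759). In the first comparison 14 hairpins were called, 21.2% of the 66, of which 9 (13.6%) moved toward 5p, and in the Vehicle to ConA+D8THC comparison 22 (33.3%), 11 in each direction. Between the ConA groups edgeR called 0, with 5 at an unadjusted p under 0.05, and limma on the log2 ratio also called 0.

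The arm shift of miR-122 rests on few 3p counts and few libraries. In the first comparison its call was lost without ConA+Vehicle replicate 2, which held 20 counts of miR-122-3p (log2 1.48, adjusted p = 0.0802). Against ConA+D8THC it was lost without ConA+D8THC replicate 2, also with 20 counts (log2 1.34, adjusted p = 0.0805). With limma on the log2 ratio the shifts were 1.84 and 1.55 with adjusted p of 0.0650 and 0.0687, and 2 and 1 hairpins were called in place of 14 and 22. The 14 became 8, 9 and 4 without Vehicle replicate 1, Vehicle replicate 2 and ConA+Vehicle replicate 2, and the 22 became 13 without Vehicle replicate 1 or ConA+D8THC replicate 1. Between the ConA groups the sign of the miR-122 difference turned without ConA+Vehicle replicate 2 (log2 0.063), and 2 hairpins were called there without Vehicle replicate 2.

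Among the hairpins called between Vehicle and ConA+Vehicle, the largest shifts were those of miR-503 (log2 2.53), miR-122 (1.80), miR-542 (1.66), miR-26b (1.56) and let-7b (1.47), each toward 5p. The median absolute shift of all 66 was 0.83. Between Vehicle and ConA+D8THC the largest called shifts were those of miR-511 (2.18), miR-503 (2.09), miR-25 (1.97) and miR-93 (1.97) toward 5p and miR-21a (-1.75) toward 3p, beside a median absolute shift of 0.67. Of the called hairpins, 10 of 14 in the first comparison and 14 of 22 in the other moved toward their more abundant strand, as miR-122 did, beside 35 and 34 of all 66 hairpins, and no test compared these shares.

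**Figure D4:**
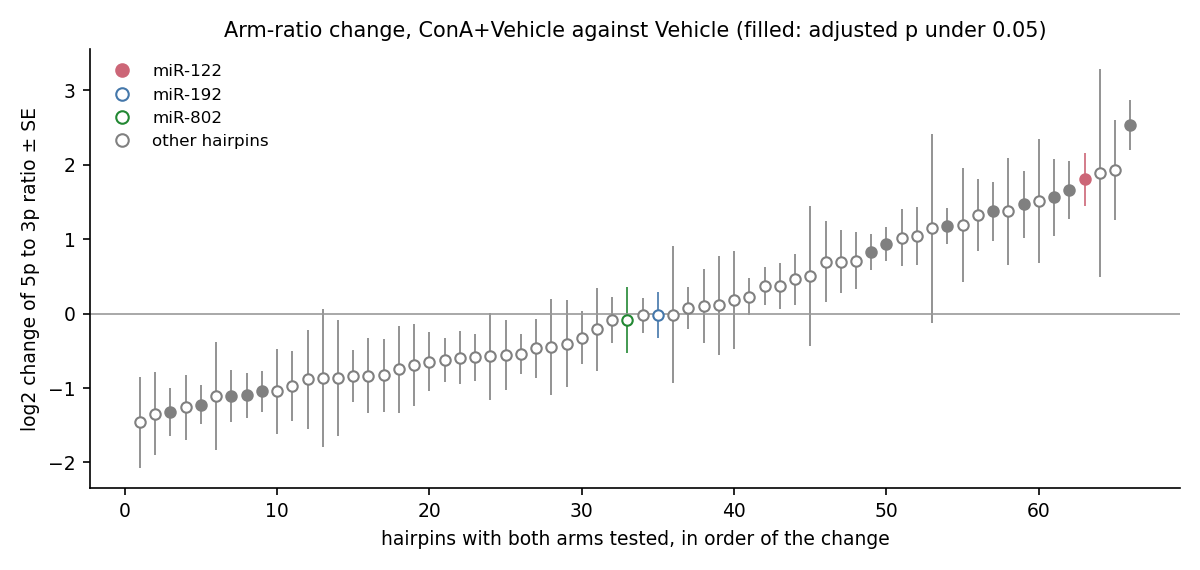
Log2 change of the 5p to 3p ratio from Vehicle to ConA+Vehicle (y axis, with standard error) for the 66 hairpins, ordered by the change, with calls at an adjusted p under 0.05 filled. miR-122 (1.80) is the fourth from the top, and miR-192 (-0.02) and miR-802 (-0.09) lie near 0.

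The other hepatocyte hairpins with both strands tested did not pass this test. miR-192 had 549 and 202 counts of 5p per count of 3p in Vehicle, 201 and 348 in ConA+Vehicle and 129 and 240 in ConA+D8THC. The ratio of miR-802 was 12.3 and 7.65, 12.0 and 6.06, and 2.83 and 5.73. From Vehicle to ConA+Vehicle their groups overlapped, and the log2 differences were -0.02 ± 0.31 (adjusted p = 0.971, edgeR) for miR-192 and -0.09 ± 0.44 (adjusted p = 0.903) for miR-802. These strands were thin, with 4 to 24 counts of miR-192-3p and 7 to 26 of miR-802-3p in a library. Whether the shift of miR-122 differs from theirs was not tested.

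All 4 miRNAs of the comparison set rose after ConA, while miR-122-5p was not called. Each was higher in ConA+Vehicle than in Vehicle, with a median log2 fold change of 1.23 beside 0.10 over all 297 miRNAs, of which 19.9% were called higher. miR-192-5p, which is expressed in liver, gut and kidney, stood at 3032 and 4256 CPM in Vehicle, 8534 and 11514 in ConA+Vehicle, and 2393 and 3762 in ConA+D8THC. It rose 2.75-fold after ConA (log2 1.46 ± 0.28, adjusted p = 0.00265, edgeR), the ConA+Vehicle libraries lying above all others. miR-148a-3p rose 2.34-fold (adjusted p = 0.0210, edgeR). miR-194-5p rose 1.85-fold (adjusted p = 0.0173) and miR-802-5p 2.34-fold (adjusted p = 0.0354).

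Of those 4 calls, 3 were lost under some settings. Without Vehicle replicate 1 adjusted p was 0.0782 for miR-194-5p, 0.0927 for miR-148a-3p and 0.0898 for miR-802-5p by edgeR. Without ConA+Vehicle replicate 1 it was 0.0552 for miR-194-5p and 0.0725 for miR-802-5p, and without ConA+Vehicle replicate 2 it was 0.0732 for miR-194-5p and 0.0522 for miR-148a-3p. With miR-126a left out of the library sizes it was 0.0566 for miR-194-5p and 0.0684 for miR-802-5p, and with no filter 0.0733 for miR-194-5p. The call of miR-192-5p was made in each of these.

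With D8THC, the comparison set was lower than in ConA+Vehicle together with miR-122-5p. 3 of 4 were called lower, beside 3.7% of all miRNAs, with a median log2 fold change of -1.75 beside -0.04. miR-802-5p fell 5.61-fold (log2 -2.49 ± 0.43, adjusted p = 0.00942, edgeR), from 329 and 361 CPM in ConA+Vehicle to 35.1 and 89.6 in ConA+D8THC. miR-194-5p fell 3.46-fold (adjusted p = 0.00399) and miR-192-5p 3.26-fold (adjusted p = 0.00863, edgeR). The log2 difference of miR-148a-3p was -1.21 ± 0.34 with adjusted p = 0.0876, and it was called without Vehicle replicate 1 (adjusted p = 0.0444), Vehicle replicate 2 (0.000140) or ConA+D8THC replicate 2 (0.000775), and with DESeq2 (0.0381), no filter (0.00805) or the replicate block (log2 -1.25, 7.65e-07). miR-122-5p, miR-192-5p, miR-194-5p and miR-802-5p made up 4 of the 11 calls. Another 3 of the 11 were miRNAs of the pancreas list given below.

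Against Vehicle, the set split. miR-194-5p (log2 -0.90 ± 0.25, adjusted p = 0.0199, edgeR) and miR-802-5p (log2 -1.26 ± 0.42, adjusted p = 0.0415) fell with ConA and D8THC, as miR-122-5p did. The log2 differences of miR-192-5p (-0.24 ± 0.28) and miR-148a-3p (0.01 ± 0.34) were not called. So 2 of 4 were called lower, beside 14.1% of all miRNAs, with a median of -0.57 beside -0.06. Without Vehicle replicate 2 neither call was made (adjusted p = 0.150 and 0.0871, edgeR), nor without ConA+D8THC replicate 1 (0.0780 and 0.228). With library totals in place of trimmed-mean scaling adjusted p was 0.0613 for miR-802-5p.

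Ratios within a library show how closely miR-122-5p ran with each of the set. Per count of miR-194-5p there were 42.5 and 46.3 counts of miR-122-5p in Vehicle, 33.0 and 41.2 in ConA+Vehicle, and 38.0 and 41.6 in ConA+D8THC. Per count of miR-192-5p there were 25.4 and 30.1, 16.1 and 15.5, and 17.2 and 15.2. Both ratios were higher in each Vehicle library than in any other library, and the first spanned 33.0 to 46.3 over the 6 libraries. Per count of miR-148a-3p there were 15.8 and 17.8, 12.0 and 10.6, and 9.68 and 7.21, a lower ratio in each group in turn. Per count of miR-802-5p there were 648 and 735, 418 and 493, and 1170 and 637, with the ConA+D8THC replicates far apart.

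**Figure D5:**
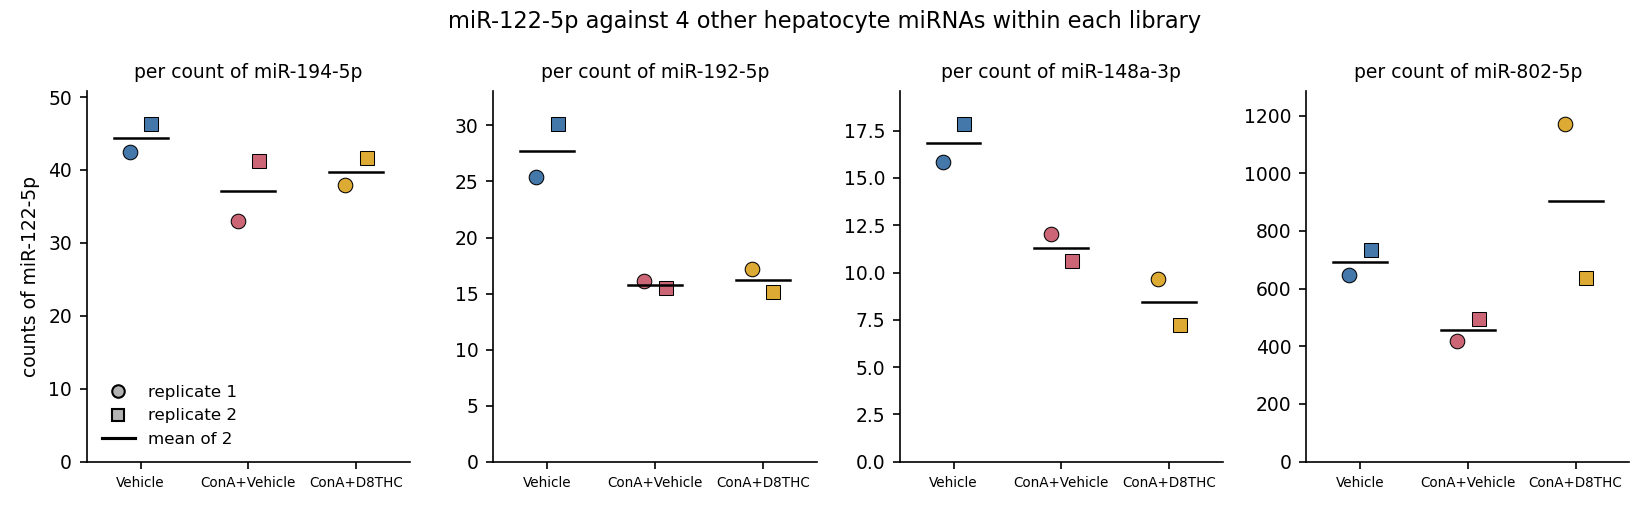
Counts of miR-122-5p per count of miR-194-5p, miR-192-5p, miR-148a-3p and miR-802-5p (y axes from 0) in each library, with replicate 1 as a circle, replicate 2 as a square and the mean of 2 as a line. The Vehicle libraries lie highest for miR-194-5p, where the ratio spans 33.0 to 46.3, and for miR-192-5p and miR-148a-3p.

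Taking miR-122-5p itself as the scale of each library, a choice made after seeing the data, none of the 4 was called against it by edgeR in any comparison. This fit draws its spread from all 296 miRNAs, so a missing call does not show that a miRNA kept pace with miR-122-5p. The log2 ratio of miR-122-5p to miR-192-5p, for example, was 4.67 and 4.91 in Vehicle and 4.01 and 3.95 in ConA+Vehicle. From Vehicle to ConA+Vehicle the log2 changes relative to miR-122-5p ran from 0.27 ± 0.51 for miR-194-5p (adjusted p = 0.738) to 0.80 ± 0.50 for miR-192-5p (adjusted p = 0.254). There 26.7% of 296 miRNAs were called, 59 of 79 of them lower. Between the ConA groups the changes of the set ran from -0.86 ± 0.60 for miR-802-5p (adjusted p = 0.175) to 0.45 ± 0.50 for miR-148a-3p (adjusted p = 0.401), where 72.6% were called, 212 of 215 of them higher. The lowest unadjusted p of the set was 0.0429, for miR-148a-3p between Vehicle and ConA+D8THC (log2 1.02 ± 0.50, adjusted p = 0.100). In that comparison 34.8% were called, 100 of 103 of them higher. miR-122-3p, in contrast, was called lower relative to miR-122-5p after ConA (log2 -1.83 ± 0.62, adjusted p = 0.0177) and between Vehicle and ConA+D8THC (log2 -1.57 ± 0.62, adjusted p = 0.0339). That is the strand ratio already tested above, from the same counts, so these calls add no separate evidence. The median of all miRNAs shifted by -0.58, 1.65 and 0.94 under this scaling in the 3 comparisons, so each value is relative to miR-122-5p alone.

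The pattern of each strand over the 6 libraries was compared with that of the other 296 miRNAs by the root-mean-square difference of log2 CPM, each centred on its own mean. The closest to miR-122-5p was miR-194-5p at 0.152, followed by miR-192-5p (0.384), miR-31-5p (0.427), miR-130a-3p (0.435) and let-7k (0.436), where the median over all was 0.890. The other hepatocyte miRNAs followed at once, miR-148a-3p at rank 6 and miR-802-5p at rank 7. miR-122-3p was at rank 117 (0.839). A near rank did not require the same order of groups. miR-130a-3p stood at 355 and 417 CPM in Vehicle and 349 and 381 in ConA+Vehicle, and these groups overlapped (log2 -0.08). let-7k was thin, with 7 to 18 counts in a library. miR-194-5p held rank 1 in the alternatives run, with a difference of 0.0922 without ConA+Vehicle replicate 1. The 6 points share their libraries and depth, so these distances are a description.

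The patterns nearest to miR-122-3p were those of miR-365-3p (0.456), miR-217-5p (0.457), miR-652-3p (0.517), miR-335-3p (0.555) and miR-30c-5p (0.581), beside a median of 1.08. None is on the hepatocyte list, and miR-122-5p was at rank 53. miR-365-3p stood at 189 and 183 CPM in Vehicle, 137 and 125.8 in ConA+Vehicle, and 70.2 and 64.0 in ConA+D8THC, falling in the same order as miR-122-3p. miR-217-5p, a miRNA of the exocrine pancreas, had 13 and 25 counts, 4 and 4, and 0 and 0. The pancreas list as a whole (4 miRNAs) was at 0.00650% to 0.00742% of counts in Vehicle and 0.00558% to 0.0102% in ConA+Vehicle. In ConA+D8THC it was at 0.000434% to 0.000766%, with up to 3 of 4 at 0. The 3 that passed the filter were all called lower in ConA+D8THC than in ConA+Vehicle by edgeR. The fall was 6.84-fold for miR-375-3p (adjusted p = 0.0245) and 65.5-fold for miR-217-5p (adjusted p = 0.0245). It was 153-fold for miR-216a-5p (adjusted p = 0.00538), the largest decrease of that comparison. Such folds are rough at these low counts. The part of the pancreas list in the miR-122 results was not tested.

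Other cell type lists moved only in part between the same groups. The bile duct list (5 strands) held 0.427% to 0.470% of counts in Vehicle, 0.427% to 0.482% in ConA+Vehicle and 0.357% to 0.509% in ConA+D8THC. In no comparison was a bile duct strand called. The stellate cell and fibroblast list (6 strands) held 1.28% to 1.32%, 0.741% to 1.29% and 0.744% to 1.26% in turn. Of its strands 2 were called lower in ConA+Vehicle than in Vehicle, beside 16.8% of all miRNAs. These were miR-199a-3p (log2 -1.15, adjusted p = 0.00391, edgeR) and miR-199a-5p (log2 -1.18, adjusted p = 0.00589). Only miR-214-3p was called lower in ConA+D8THC than in Vehicle (log2 -1.27, adjusted p = 0.0341), and none was called between the ConA groups. The hepatocyte list (6 strands, miR-122 included) summed to 8.35% to 13.9% of counts in Vehicle, 17.1% to 19.7% in ConA+Vehicle and 5.18% to 7.15% in ConA+D8THC, and miR-122-5p was 88.5% to 89.8%, 84.3% to 84.9% and 81.3% to 84.1% of that sum. Both strands of the endothelial list, whose shares are given with the library totals, were called lower in ConA+Vehicle than in Vehicle, as were 16.8% of all miRNAs. Myeloid strands of miR-223 and miR-511 (4 strands) summed to 0.348% to 0.365%, 2.76% to 2.92% and 1.48% to 2.18%. The sum joins opposite changes, since from Vehicle to ConA+Vehicle miR-223-3p rose 8.12-fold and miR-223-5p 3.86-fold, while miR-511-3p fell 8.55-fold and miR-511-5p 3.69-fold (adjusted p = 4.43e-05, 0.00332, 0.000638 and 0.0472, edgeR). Lymphocyte strands of miR-150 and miR-342 (4 strands) summed to 0.517% to 0.763%, 0.834% to 1.08% and 0.607% to 0.999%. Of the 3 tested, only miR-342-3p was called, higher than in Vehicle in ConA+Vehicle (adjusted p = 0.0468, edgeR) and in ConA+D8THC (adjusted p = 0.0102). Of the pan-haematopoietic strands, miR-142a-5p was called higher in the same comparisons (adjusted p = 0.0188 and 0.0354) and miR-142a-3p in neither. Of all miRNAs, 19.9% and 18.5% were called higher there. The erythroid list (4 strands) summed to 0.0434% to 0.103%, 0.0855% to 0.180% and 0.0439% to 0.0557%, with means in the same order of groups as miR-122-5p. All 4 erythroid strands were lower without overlap in ConA+D8THC than in ConA+Vehicle (median log2 -1.40), where 46.8% of all miRNAs did not overlap. None of these strands was called, with adjusted p by edgeR from 0.0955 for miR-451a to 0.255 for miR-144-3p. Because a share depends on all other miRNAs, counts of miR-122-5p per count of miR-126a-3p are given too, at 0.318 and 0.450, 1.56 and 1.79, and 0.282 and 0.295. That ratio was highest in ConA+Vehicle, and the part of the marker shares and of library depth in the miR-122 results was not tested.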

How the data were processed

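Small RNA libraries (QIAseq miRNA kit and an Illumina sequencer, per the labels and the series' design text) of 6 samples were analysed, 2 in each of 3 groups. The deposited values are raw counts per mature miRNA, which the authors made in QIAGEN's GeneGlobe portal, per the series' design text, with build mm10, per the submitters' processing notes. The aligner, the miRNA annotation and the collapsing of unique molecular identifiers were not given in the sources used here. Of 1960 miRNAs, 806 had a count and 297 passed edgeR's filterByExpr, holding at least 99.9% of each library, and totals ran from 322764 to 1172389.

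Counts were tested in R 4.3.3 with edgeR 4.0.16 (trimmed-mean scaling, robust quasi-likelihood fit of all 6 libraries, 3 residual degrees of freedom), with Benjamini-Hochberg adjustment and calls at 0.05. Standard errors are the log2 fold change over the root of F. Strand ratios were tested in 1 model with library, strand and strand by group. Patterns used log2 CPM with a prior count of 2. With 2 libraries a group an exact two-sided permutation test cannot go below 0.333, so ratios in single libraries are given as values, and tests of ratios come from the fits across all hairpins or miRNAs. The scripts were tested on simulated counts. Replicates of a group differed by more than sampling noise.

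Members and lists were chosen with earlier results of these data known. Named are both strands, other miR-122 entries, the hepatocyte miRNAs and their opposite strands, the 5 nearest patterns per strand, the most abundant miRNA and the 5 largest called strand shifts. Alternatives were other scalings, no filter, DESeq2 1.42.0, limma 3.58.1, a replicate block, only the 4 libraries compared and each library left out. Figures were drawn with matplotlib 3.10.9 in Python 3.11.15.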

Additional observations from a re-analysis of the deposited data

How the results depend on the processing

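Directions of both strands held in all alternatives, apart from the strand ratio between the ConA groups, which turned to 0.063 without ConA+Vehicle replicate 2. Whether the replicate numbers pair the libraries is not settled. Deviations of same-numbered libraries correlated at 0.203, 0.238 and 0.0726 over 297 miRNAs. In CPM, miR-122-5p was higher in replicate 2 than in replicate 1 of each group. With the replicate block, miR-122-5p was called from Vehicle to ConA+Vehicle (log2 0.65) and miR-122-3p between the ConA groups (-1.43), where 44 miRNAs and 2 hairpins were called. miR-122-3p was also called between the ConA groups with upper-quartile factors (-1.53), limma-voom (-1.42) and the 4 libraries alone (-1.44). The count of 11 there was 17 with upper-quartile factors or DESeq2, 19 without the filter and 18 with the 4 libraries alone. With limma on the strand ratio, miR-122 was not called (1.84 and 1.55 against Vehicle), and 2 and 1 hairpins were called.

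With 1 library left out at a time, which leaves a lone library assumed to vary like the others, called miRNAs ranged over 67 to 129 (ConA+Vehicle against Vehicle), 8 to 40 (ConA+D8THC against ConA+Vehicle) and 63 to 112 (ConA+D8THC against Vehicle), and hairpins over 4 to 16, 0 to 2 and 13 to 21. The log2 values of miR-122-5p ranged over 0.29 to 1.05 in the first comparison and -1.39 to -0.61 in the last, and those of miR-122-3p over -1.37 to -1.02 in the first and -1.53 to -1.23 between the ConA groups. The log2 strand ratio ranged over 1.48 to 2.21, -0.66 to 0.063 and 1.32 to 1.79.

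Differences near 0 turned sign. Between Vehicle and ConA+D8THC, miR-148a-3p went to -0.012 (RLE factors), -0.011 (DESeq2), -0.081 (upper-quartile factors), -0.093 (miR-126a left out of library sizes), -0.031 (no filter), -0.024 (limma-voom) and -0.023 (replicate block). With 1 library left out it ranged over -0.48 to 0.41, miR-192-5p over -0.58 to 0.058, miR-192-3p over -0.29 to 1.64 and miR-802-3p over -0.72 to 0.55. After ConA the strand ratio of miR-192 went to 0.045 with the replicate block and ranged over -1.06 to 0.42 with 1 library left out, and that of miR-802 over -0.54 to 0.44. The cause was not tested. Depth limits the 3p strands, at 20 counts of miR-122-3p in 2 libraries.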
